A study of Mus musculus with 24 samples.

Results

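The comparison described here sets the hippocampus of FoxO6 mutant mice against that of wild-type (WT) mice in the basal state, across all measured genes. Its members were chosen by their titles, which name 6 arrays as mutant and 6 as WT before learning, 12 of the 24 arrays of the study. Both groups were male mice 8 to 9 weeks old on a mixed C57BL/6J-129sv background, housed singly for at least 3 days and given no task. The WT group is labelled FoxO6 +/+ and the mutant group FoxO6 -/-, or null. How the allele was made and which part of Foxo6 it removes is unknown from the labels. The other 12 arrays, 6 WT and 6 mutant, come from mice of the same ages and background taken 60 min after exploring a pair of identical objects. These mice had been habituated for 10 min 24 h before, and the task itself lasted 10 min. Their arrays enter neither group mean of the basal comparison, but they share its model, which took its spread from all 24 arrays. These arrays are used below to give the same genotype difference in other samples. With the 12 basal arrays alone in the model, 11 genes were called in place of the 20 given below.

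FoxO6 belongs to the FoxO group of forkhead transcription factors. In this group, insulin and growth factor signals act through PI3K and Akt, which phosphorylates FoxO proteins and moves most of them out of the nucleus; FoxO6 is known to shuttle less than its relatives. It is known for its expression in the adult hippocampus and for a role in memory consolidation, and the comparison asks which RNAs differ there when it is missing.

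Each value is a log2 hybridisation signal of a transcript cluster, so a difference of 1 is a factor of 2 in signal. RNA came from dissected hippocampus, and in such bulk samples fewer cells of a type and less RNA per cell cannot be told apart. Markers of the main hippocampal fields were measured on all 12 basal arrays: Prox1 of dentate granule cells lay between 8.78 and 9.40, Wfs1 of CA1 between 8.82 and 9.43, and Grik4 of CA3 between 8.73 and 9.12. Within groups, arrays correlated across genes at 0.991 to 0.997. Along the first principal component of the basal arrays (26% of the variance), mutant arrays 6 (21.92) and 2 (−15.53) lay at the ends. In choroid plexus signal, WT basal arrays 4, 5 and 6 stood apart from the rest. Their signal of Ttr, which encodes transthyretin and is made in the brain by the choroid plexus, was 8.80, 9.64 and 9.17, against 11.65, 12.11 and 11.81 on WT arrays 1, 2 and 3 and 11.01 to 11.99 on the mutant arrays. Results that could move with this are therefore also given against WT arrays 1 to 3 alone. The labels call the arrays biological replicates without saying whether each comes from its own animal; the p-values cover only the spread among these arrays, which may be partly technical.

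In the basal hippocampus 20 of 19938 genes (0.100%) passed the test (limma, adjusted p under 0.05), here named called genes. Of these, 9 were higher in the mutant (0.0451% of genes) and 11 lower (0.0552%). The called differences were small: the largest was 0.87 on the log2 scale, the smallest 0.19, and 0 reached 2-fold. The groups did not overlap in 16 of the 20, against 86 of all genes (0.431%). The count of 20 depends on single arrays: it was 6 without mutant array 2, 9 without WT array 2 or mutant array 6, 10 without WT array 3 or 5, 11 without WT array 4 and 12 without mutant array 3. Against WT arrays 1 to 3 alone 10 genes were called, of which 8 were among the 20. Foxo6, Grp, Ndufs5, Crym and Fibcd1 kept their calls in all 12 runs that left out a single array. Against WT arrays 1 to 3 these 5 were called too, together with Ppt1, Kcnv1 and Stxbp6.

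Foxo6 itself checks the labels. On the WT arrays it lay between 6.78 and 7.30 with a median of 7.04, and on the mutant arrays between 6.18 and 6.59 with a median of 6.26. All mutant arrays were below all WT arrays, with mutant array 6 nearest to WT. The difference was −0.73 (SE 0.0906, adjusted p = 0.000128), and the exact two-sided permutation test over 924 assignments gave p = 0.00216, the smallest they allow (0.00864 adjusted over the 4 FoxO genes). Where the probe lies relative to the mutated part of the gene is not given, so the remaining 60.4% of signal is not an estimate of remaining functional RNA. The other FoxO genes, measured on their own probes, were not called. Foxo1 was at a median of 8.99 in the mutant and 8.88 in WT (difference 0.11, 95% interval −0.0015 to 0.22; exact permutation p = 0.0368, adjusted 0.0736). Foxo3 differed by 0.04 (−0.11 to 0.18) and Foxo4 by −0.04 (−0.17 to 0.09), and both groups' ranges overlapped in each.

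**Figure D1:**
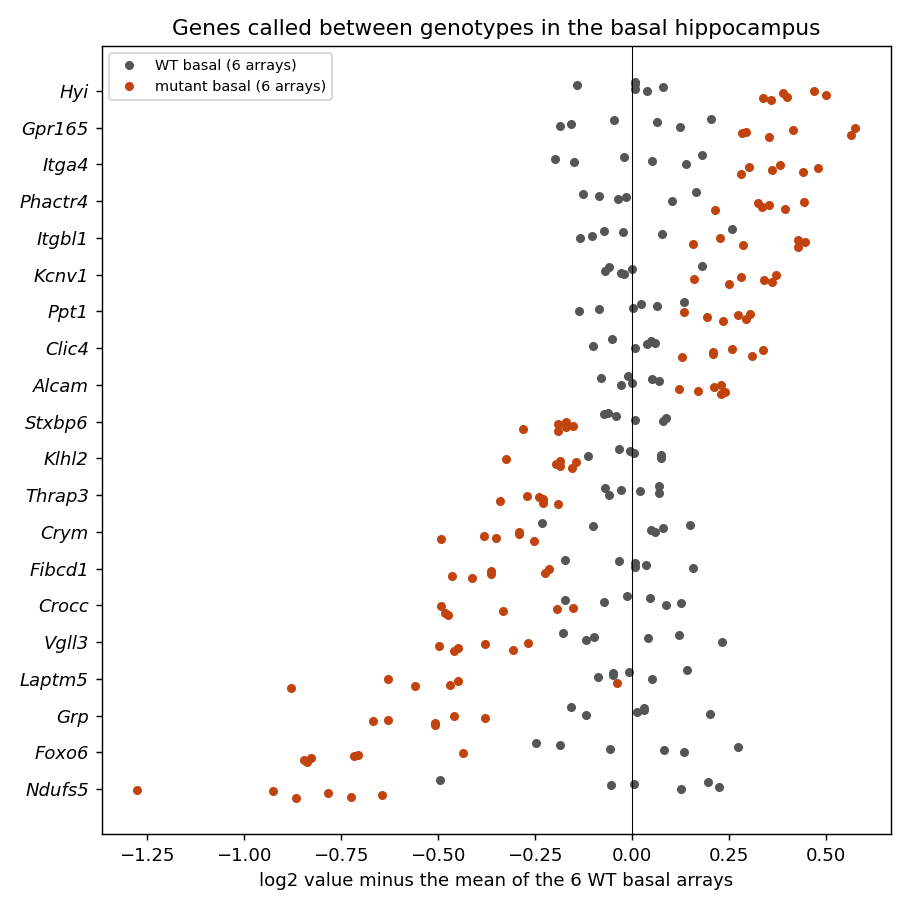
Each called gene on each basal array, as the log2 value minus the mean of the 6 WT basal arrays (horizontal axis); grey points are WT and orange points mutant arrays, genes ordered by the size of the difference. The groups are apart in 16 of the 20 genes, and in Laptm5 a single mutant array lies among the WT arrays.

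Among the lower genes, 6 lie on other chromosomes than Foxo6, and several are known from neurons of the hippocampus. Grp encodes gastrin-releasing peptide, a neuropeptide that acts on the receptor Grpr. It lay between 8.25 and 8.61 (median 8.43) on the WT arrays and between 7.74 and 8.03 (median 7.90) on the mutant arrays. No mutant array reached the lowest WT array. It fell by 0.53 (SE 0.0672, adjusted p = 0.000128), to 69.5% of the WT signal. Its receptor gene Grpr, from the neuropeptide receptor list and shown for its pairing with Grp, differed by 0.03 (adjusted p = 1) with overlapping groups.

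Crym encodes mu-crystallin, a cytosolic protein that binds thyroid hormone. Its WT values were 9.88 to 10.26 (median 10.16) and its mutant values 9.62 to 9.86 (median 9.79), so that the groups were apart by 0.02. It fell by 0.34 (SE 0.0516, adjusted p = 0.0014). Of the other 13 thyroid hormone genes measured, which include the receptors, the deiodinases and the transporter Slco1c1, 0 were called and their differences ran from −0.05 (Thrsp) to 0.15 (Slco1c1).

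Fibcd1 encodes a transmembrane receptor for acetylated sugars and serves as a marker of CA1 pyramidal cells. It lay between 8.90 and 9.23 (median 9.08) in WT and between 8.61 and 8.86 (median 8.71) in the mutant, again without overlap. It fell by 0.34 (SE 0.0557, adjusted p = 0.00563). The other 12 CA1 markers lay between −0.11 (Gpr161) and 0.16 (Wfs1), with a median of −0.00018, and 0 of them were called. The 95% interval was inside ±0.25, a factor of 1.19, for 11 of these 12.

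Stxbp6, also called amisyn, encodes a SNARE-binding protein of the presynaptic release machinery and is a marker of dentate granule cells. Its range was 9.53 to 9.69 (median 9.59) in WT and 9.32 to 9.45 (median 9.42) in the mutant. The groups did not overlap, and mutant array 2 was the lowest. It fell by 0.19 (SE 0.0396, adjusted p = 0.0371). Klhl2, an actin-binding adaptor of a ubiquitin ligase, was at 10.88 to 11.07 (median 10.99) in WT and at 10.67 to 10.85 (median 10.81) in the mutant. It fell by 0.20 (SE 0.0379, adjusted p = 0.0229), with the groups 0.03 apart. Vgll3, a cofactor of TEAD transcription factors, was at 6.35 to 6.76 (median 6.50) against 6.03 to 6.26 (median 6.12). It fell by 0.39 (SE 0.0815, adjusted p = 0.0445). Vgll3 was dim, with a mean level above that of only 39.8% of genes. The 3 calls are less firm than those of Grp, Crym and Fibcd1: of 12 runs that each left out 1 array, Klhl2 kept its call in 5, Stxbp6 in 3 and Vgll3 in 1.

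Of the called genes on chromosomes other than that of Foxo6, 5 were higher. Alcam, an adhesion molecule of the immunoglobulin family, was at 9.82 to 9.97 (median 9.89) in WT and at 10.02 to 10.14 (median 10.12) in the mutant. All mutant arrays were above all WT arrays. It rose by 0.20 (SE 0.036, adjusted p = 0.0151). Kcnv1 encodes a potassium channel subunit that forms no channel alone and modulates others. It was at 9.00 to 9.25 (median 9.04) in WT and at 9.23 to 9.44 (median 9.38) in the mutant. A single mutant array lay inside the WT range, whose top was set by WT array 6. It rose by 0.29 (SE 0.0535, adjusted p = 0.0151).

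Itga4 encodes the integrin alpha 4 chain, a receptor for fibronectin and the adhesion molecule VCAM1. It was at 7.72 to 8.10 (median 7.94) in WT and at 8.20 to 8.40 (median 8.29) in the mutant, without overlap. It rose by 0.37 (SE 0.0734, adjusted p = 0.0295). Itgbl1, a secreted protein with repeats like those of integrin beta chains, was at 6.85 to 7.24 (median 6.94) against 7.14 to 7.43 (median 7.34). It rose by 0.33 (SE 0.0675, adjusted p = 0.0382), although 2 mutant arrays lay inside the WT range. Gpr165, an orphan G protein-coupled receptor on the X chromosome, was at 8.08 to 8.47 (median 8.28) against 8.55 to 8.84 (median 8.65), without overlap. It rose by 0.41 (SE 0.0828, adjusted p = 0.033). Without single arrays, Alcam kept its call in 10 of 12 runs, Kcnv1 in 7, Itga4 and Gpr165 in 4 and Itgbl1 in 2. Against WT arrays 1 to 3 alone, Kcnv1 was called (0.33, adjusted p = 0.0287), while Alcam was at 0.19 (0.136), Itga4 at 0.36 (0.151), Itgbl1 at 0.38 and Gpr165 at 0.49 (both 0.0632).

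The other 9 called genes, Foxo6 included, lie on chromosome 4 with Foxo6, which holds 5.81% of the genes with a position (RefSeq, GRCm38.p6). Ndufs5 encodes an accessory subunit of mitochondrial complex I and lies 3.43 Mb from Foxo6. It was at 8.54 to 9.26 (median 9.10) in WT and at 7.76 to 8.39 (median 8.21) in the mutant, without overlap. It fell by 0.87 (SE 0.114, adjusted p = 0.000134), to 54.7% of the WT signal, the largest difference among the called genes. It was the called gene among 47 complex I subunits and assembly factors: the other 46 ran from −0.11 (Ndufaf1) to 0.22 (Ndufc2), with the interval of 43 inside ±0.25. Laptm5, a lysosomal membrane protein of blood cells and microglia, lies at 10.63 Mb. It was at 8.38 to 8.61 (median 8.44) in WT and at 7.59 to 8.43 (median 7.96) in the mutant. A single mutant array overlapped WT. It fell by 0.50 (SE 0.0931, adjusted p = 0.0163). The other 16 microglia markers had a median difference of 0.07 and 0 calls; the receptor gene Csf1r, for example, differed by 0.11.

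Thrap3, a cofactor of transcription and splicing at 5.88 Mb, was at 9.38 to 9.52 (median 9.45) in WT and at 9.11 to 9.26 (median 9.22) in the mutant. It fell by 0.25 (SE 0.047, adjusted p = 0.0191). Its groups were apart by 0.13. Crocc, which encodes rootletin of the ciliary rootlet, lies at 20.73 Mb and was at 7.45 to 7.75 (median 7.64) against 7.13 to 7.47 (median 7.22). It fell by 0.35 (SE 0.0735, adjusted p = 0.0445), with 1 mutant array inside the WT range. Among the other 17 ependymal and ciliary genes, 0 were called.

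Higher on the same chromosome was Hyi, at −1.90 Mb on the other side of Foxo6, named for hydroxypyruvate isomerase and listed by RefSeq as a transcribed pseudogene in the C57BL/6J reference. It was at 6.88 to 7.10 (median 7.03) in WT and at 7.36 to 7.52 (median 7.42) in the mutant. The gap of 0.26 between the groups was wider than the whole range of either. It rose by 0.41 (SE 0.0736, adjusted p = 0.0151). Ppt1, a lysosomal enzyme that removes palmitate from proteins, lies at 2.55 Mb and was at 9.95 to 10.22 (median 10.10) against 10.22 to 10.39 (median 10.34). The highest WT and lowest mutant arrays differed by 0.00028 only. It rose by 0.24 (SE 0.0436, adjusted p = 0.0151). Phactr4, a regulator of protein phosphatase 1 and actin at 12.07 Mb, was at 5.84 to 6.13 (median 5.94) against 6.18 to 6.41 (median 6.31). It rose by 0.34 (SE 0.0669, adjusted p = 0.0284). Phactr4 was dim, with a mean level above that of only 35.5% of genes. Clic4, a chloride intracellular channel protein at 14.93 Mb, was at 9.57 to 9.73 (median 9.70) against 9.80 to 10.01 (median 9.90). It rose by 0.24 (SE 0.0484, adjusted p = 0.0371). The groups of Phactr4 and of Clic4 did not overlap. Of these genes Hyi kept its call in 11 of 12 runs without single arrays, Ppt1 and Laptm5 in 10, Thrap3 in 7, Phactr4 in 4, Crocc in 3 and Clic4 in 2.

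The chromosome 4 genes were not spread over the whole chromosome. All 9, Foxo6 itself included, lay within 25 Mb of Foxo6, among 587 genes (1.53%). Apart from Foxo6, 7 of 353 genes on the side that holds Ndufs5 and 1 of 233 on the side that holds Hyi were called. Of the 567 genes farther away on chromosome 4, 0 were called, and of 18701 on other chromosomes 11 (0.0588%). The window left out in an alternative below was narrower, at 20 Mb. It held 8 called genes of 501 (1.6%), and only the wider edge takes in Crocc at 20.73 Mb. At a looser threshold, an unadjusted p under 0.01 was found for 227 of all genes (1.14%). Within 25 Mb it was 48 of 587 genes (8.18%), farther along chromosome 4 it was 7 (1.23%), and on the other chromosomes 172 (0.92%). Within the 25 Mb the share was uneven, at 3.8% up to 5 Mb, 12.8% from 5 to 10 Mb, 16.1% from 10 to 15 Mb, 0.943% from 15 to 20 Mb and 6.98% from 20 to 25 Mb. It was 11% on the side that holds Ndufs5 and 3.43% on the side that holds Hyi. These 48 genes went both ways, 21 higher and 27 lower, and 46 (95.8%) had the same sign in the arrays after learning, against 146 of the 172 (84.9%) on other chromosomes; that difference was not tested. With all genes within 20 Mb left out and p-values adjusted over the rest, 6 genes were called, 2 higher and 4 lower, all 6 among the 20. With all genes kept, the calls outside that window were the 11 on other chromosomes and Crocc. Some of these calls therefore depended on which genes entered the test. The mutant allele and the chromosome segment that comes with it on a mixed background cannot be told apart in these groups.

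**Figure D2:**
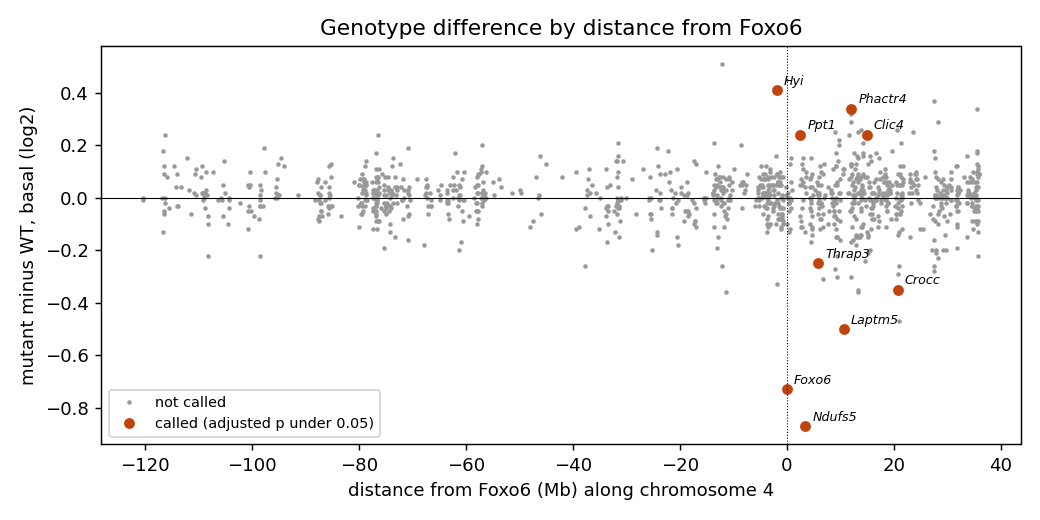
Basal difference (mutant minus WT, log2, vertical axis) of every measured gene of chromosome 4 against its distance from Foxo6 in Mb (horizontal axis, Foxo6 at 0). The 9 called genes, in orange with their names, all lie within 25 Mb of Foxo6, 4 of them higher and 5 lower.

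Of the genes nearest to a call, some lay in the same region and some did not. Taking the 8 genes nearest to a call in each direction, the adjusted p-values ran from 0.0517 to 0.172, and 9 of these 16 lay on chromosome 4 within 25 Mb of Foxo6, a region that holds 2.96% of the genes with a position. Scp2, which encodes a sterol carrier protein, was at 8.06 to 8.67 in WT and 8.49 to 8.99 in the mutant (difference 0.51, adjusted p = 0.0886). Med8, a mediator subunit, differed by −0.33 (0.104), and Nudc, a dynein-associated protein, by 0.25 (0.0886). Among the 16, Slc26a4, the anion exchanger pendrin, came nearest outside the region at −0.34 (0.0517). Lsm11, a component of the complex that processes histone RNA, followed at 0.25 (0.0771). The groups did not overlap in either. The receptor tyrosine kinase gene Ret was at 0.37, the LIM protein gene Pdlim1 at 0.30 and the cytokine gene Il34, a ligand of Csf1r, at 0.21 (adjusted p = 0.0886, 0.0886 and 0.0918). All 16 had the same sign after learning.

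The arrays taken after learning gave a comparison of the same genotypes in 12 other samples. All 20 genes had the same sign there. The same test called 15 genes after learning (0.0752% of all), and 10 of the 20 were among them: Foxo6, Grp, Ndufs5, Crym, Fibcd1, Alcam, Hyi, Laptm5, Thrap3 and Klhl2. Of these 10, 5 lie on chromosome 4 and 5 elsewhere. Grp was higher in both genotypes after learning and still apart, at 9.11 to 9.44 in WT and 8.50 to 8.91 in the mutant (−0.55, adjusted p = 5.49e-05). Ndufs5 was at 9.21 to 9.76 against 8.21 to 8.77 (−1.09, adjusted p = 3.68e-06), and Fibcd1 at 8.48 to 8.73 against 8.07 to 8.31 (−0.35, adjusted p = 0.00226). None of the 3 overlapped in that state.

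The other 10 basal genes were not called after learning, and each was smaller there. Crocc differed by −0.02 (95% interval −0.17 to 0.13), at 6.79 to 7.20 in WT and 6.87 to 7.12 in the mutant. Gpr165 was at 0.10 (−0.07 to 0.27), Clic4 at 0.08 and Phactr4 at 0.11. These 4 were the called genes with an unadjusted p under 0.05 for the change of the genotype difference between states, Crocc with 0.00294. After adjustment over all genes, 0 genes were called for that change by limma, with 510 at an unadjusted p under 0.05 (2.56%). A gene called at basal and not after learning was therefore not shown to differ between the states.

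**Figure D3:**
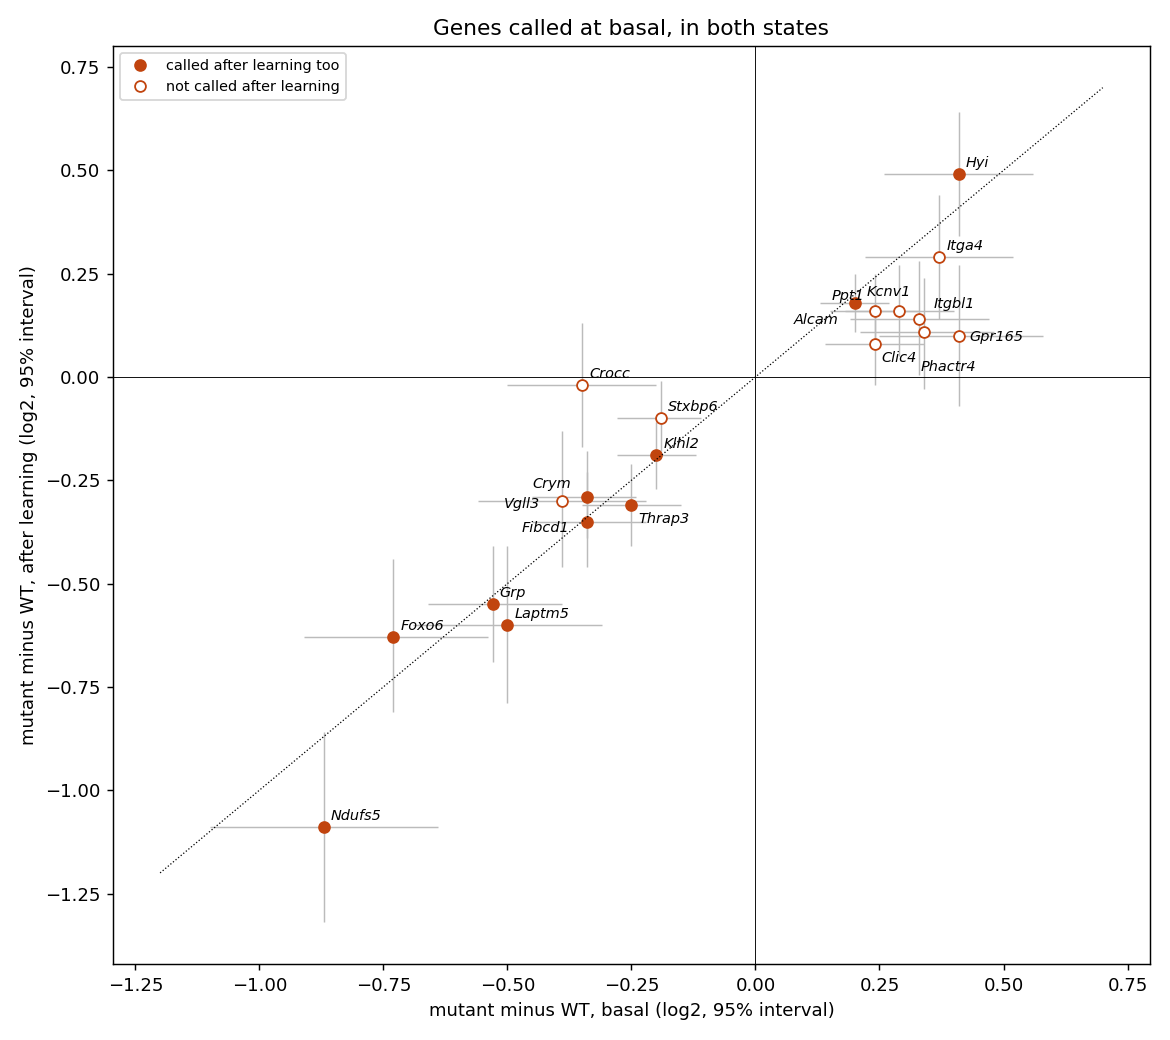
The 20 genes called at basal, with the basal difference on the horizontal axis and the difference after learning on the vertical axis (mutant minus WT, log2; bars are 95% intervals; dotted line, equal differences). All 20 lie in the quadrants of equal sign; the 10 filled points were called after learning too, and Crocc, at −0.35 and −0.02, is farthest from a shared value among the lower genes.

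Promoter sequences were looked at because FoxO factors bind DNA directly. The window was 250 bases before to 50 bases after a start site (RefSeq, GRCm38.p6), and the motifs were the forkhead core GTAAACA and the insulin response element CAAAACAA, each on both strands. The motifs may overlap each other and were counted separately. A window was held for 15 of the 20 called genes, and 0 of these 15 had a match to either motif. Of 32851 windows in the whole table, 3.65% held the first motif and 2.51% the second. No match says only that these letters are absent from this window. The windows of Ndufs5 and Fibcd1 are shown because these are the called genes of smallest p that have one, the first near Foxo6 and the second on another chromosome. Capitals mark the bases from the start site on. The Ndufs5 window is chr4:123718137-123718436 and the Fibcd1 window chr2:31845956-31846255, both on the minus strand and written 5′ to 3′.
Ndufs5: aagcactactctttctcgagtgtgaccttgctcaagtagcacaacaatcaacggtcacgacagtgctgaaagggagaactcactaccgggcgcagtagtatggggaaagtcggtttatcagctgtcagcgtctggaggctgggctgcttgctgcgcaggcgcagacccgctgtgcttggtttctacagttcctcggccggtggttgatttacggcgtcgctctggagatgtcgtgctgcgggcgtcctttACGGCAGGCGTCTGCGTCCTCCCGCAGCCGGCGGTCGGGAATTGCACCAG
Fibcd1: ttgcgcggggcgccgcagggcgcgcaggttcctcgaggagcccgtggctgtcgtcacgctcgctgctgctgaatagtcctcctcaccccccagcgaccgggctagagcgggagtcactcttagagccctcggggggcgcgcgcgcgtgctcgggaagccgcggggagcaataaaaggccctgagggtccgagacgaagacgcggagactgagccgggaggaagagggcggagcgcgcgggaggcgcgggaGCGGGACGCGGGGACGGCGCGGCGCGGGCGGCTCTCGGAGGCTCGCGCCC

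Gene lists place these few genes among the rest of the hippocampal transcriptome. There were 43 lists with 958 measured genes, and 13 of these were called (1.36%, against 0.100% of all genes). Most called genes had been seen in these data before the lists were written, so that share supports nothing. Over all genes 57.6% were higher in the mutant, with a median difference of 0.01; a second quantile normalization brought that median to 0.0013. Counts of higher members are to be read beside the 57.6%. Counts of called members are to be read beside the 0.100%, at which most lists would hold 0.

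Dentate granule cell markers had the lowest list median. Of 15 measured, 13 were lower (median −0.13), 1 was called (Stxbp6) and 7 were lower at an unadjusted p under 0.05. Of all 19938 genes, 355 were lower and 543 higher at that threshold (898 in either direction, 4.50%). The mean of the list was 8.18 to 8.36 on the WT arrays and 8.05 to 8.22 on the mutant arrays. All 6 mutant arrays were below the WT mean, and 2 of them lay inside the WT range. Prox1, the transcription factor of granule cell identity, was at 8.96 to 9.40 (median 9.12) in WT and 8.78 to 9.04 (median 8.87) in the mutant (−0.25, SE 0.0631, adjusted p = 0.175). C1ql2, a secreted synaptic protein of mossy fibres, was at 8.59 to 9.10 against 8.34 to 8.66 (−0.33, SE 0.0856, adjusted p = 0.259). Both were picked after their values were seen, and the groups overlapped in each. The largest positive value was that of Pdzd2 (0.17). The list median was −0.13 against WT arrays 1 to 3 alone, between −0.15 and −0.10 without single arrays, and −0.11 after learning.

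Markers of the pyramidal fields showed no such shift. The median was −0.0023 for 13 CA1 markers, 0.04 for 10 CA2 markers and −0.00029 for 11 CA3 markers. Grik4, a kainate receptor subunit of CA3, was at 8.73 to 8.91 in WT and 8.95 to 9.12 in the mutant, without overlap (0.18, adjusted p = 0.413). Plagl1, a zinc finger factor, was at −0.23 (adjusted p = 0.363). Of 14 ventral hippocampus markers 10 were higher (median 0.04), with the receptor gene Trhr at 0.31 and the glypican gene Gpc3 at −0.28, neither called. In 21 genes of cell division and new neurons 16 were higher (median 0.02) and 0 called.

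Interneuron markers had a higher median than most lists. Of 22, 19 were higher (median 0.08), 0 were called and 9 were higher at an unadjusted p under 0.05, beside 543 of all 19938 genes. The list mean was 8.51 to 8.68 in WT and 8.58 to 8.74 in the mutant, with 5 of 6 mutant arrays above the WT mean and 2 inside the WT range. The GABA-synthesising enzyme gene Gad2 was at 9.86 to 10.10 in WT and 9.99 to 10.21 in the mutant (0.13, adjusted p = 0.777), while its partner Gad1 was at 10.59 to 10.71 and 10.55 to 10.69 (−0.01). Pvalb, Npy, Reln and Erbb4 were at 0.18, 0.21, 0.18 and 0.19, and Sst at 0.09. Other members moved less: Lhx6, Dlx1, Kit and Slc32a1 were at 0.03, 0.03, 0.04 and 0.07. Nos1 and Sp9 were at −0.02 and −0.03. Apart from Gad2 and Sp9, these were picked after their values were seen. The list median was 0.13 against WT arrays 1 to 3 and 0.04 after learning.

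Markers of tissue around the hippocampus are given beside both lists. Of 19 choroid plexus markers 19 were higher (median 0.17) and 0 called, but against WT arrays 1 to 3 alone 5 of 19 were higher (median −0.09). The list mean was 6.46, 6.72 and 6.64 on WT arrays 1 to 3, 5.87, 6.06 and 5.97 on WT arrays 4 to 6, and 6.30 to 6.75 on the mutant arrays. Of 16 markers of neocortex and subiculum 13 were higher (median 0.07), with the list mean at 8.09 to 8.35 in WT and 8.19 to 8.41 in the mutant. That median was 0.14 against WT arrays 1 to 3. Thalamus markers had a median of 0.03 (6 of 11 higher) and leptomeningeal genes one of 0.02 (11 of 16 higher). In these 4 lists 0 genes were called, and the array means of the groups overlapped. The part of the choroid plexus and neocortex markers in the dentate and interneuron values was not tested. With the choroid plexus mean as a covariate 14 genes were called, 13 of them among the 20, and the dentate and interneuron medians were −0.16 and 0.12.

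**Figure D4:**
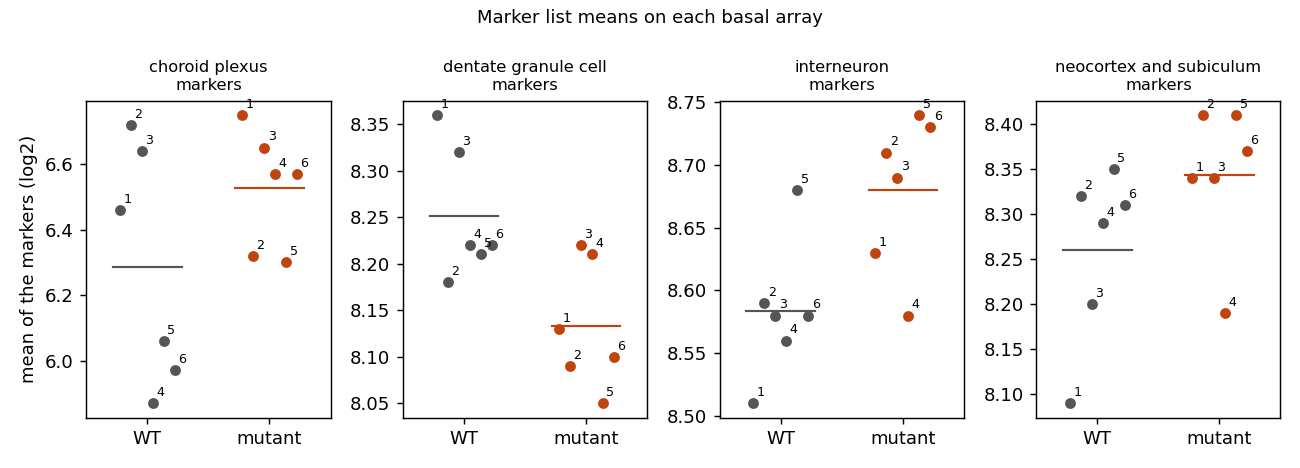
Mean log2 value of 4 marker lists on each basal array (points numbered by array; lines are group means; the vertical axes differ and do not start at 0). WT arrays 4 to 6 are lowest for choroid plexus markers, while mutant arrays tend to lie lower for dentate markers and higher for interneuron markers, with overlap in all 4 lists.

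Among glial and vascular lists, microglia markers, described with Laptm5, had 12 of 17 members higher (median 0.07) and 1 called, Laptm5, which was lower. Of 15 astrocyte markers 9 were higher (median 0.02) and the interval of 15 was inside ±0.25. Of 15 oligodendrocyte and myelin genes 8 were higher (median 0.0042), with 14 intervals inside ±0.25. Endothelial and mural cell markers had a median of 0.04 (14 of 17 higher), and the blood-brain barrier transporter gene Slco1a4 was at 0.16 (adjusted p = 0.822). In the astrocyte, oligodendrocyte and endothelial lists 0 genes were called.

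Synaptic and channel genes were mostly higher by small amounts. Of 58 potassium channel genes 46 were higher (median 0.06) and Kcnv1 was called. At an unadjusted p under 0.05, 10 were higher against 2 lower, beside 543 and 355 of all 19938 genes. The list mean was 8.38 to 8.45 in WT and 8.42 to 8.52 in the mutant, and 5 of 6 mutant arrays were above the WT mean. Of 32 glutamate receptor genes 25 were higher (median 0.04) with 0 called; the AMPA receptor subunit gene Gria2 was at −0.08. Of 35 postsynaptic scaffold and adhesion genes 30 were higher (median 0.03), with Alcam called. Of 37 presynaptic release genes 25 were higher (median 0.04), with Stxbp6 called lower and the active zone gene Rims1 at 0.09 with groups that did not overlap (adjusted p = 0.827). After learning the medians were 0.01, 0.0015, −0.0017 and −0.0016 in the same order.

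Peptide and receptor genes also had medians a little above that of all genes. Of 23 neuropeptide precursor genes 17 were higher (median 0.06) while Grp fell; the enkephalin precursor gene Penk was at 8.70 to 9.04 in WT and 8.96 to 9.41 in the mutant (0.24, adjusted p = 0.334). Of 24 neuropeptide receptor genes 18 were higher (median 0.07), with the cholecystokinin receptor gene Cckbr at 6.99 to 7.55 and 7.34 to 7.78 (0.34, adjusted p = 0.257). The serotonin receptor gene Htr2a was at 0.28 (adjusted p = 0.15) and the guidance ligand gene Slit2 at 0.28 (adjusted p = 0.486). None of the last 3 was called, and the groups overlapped in each.

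The lists of FoxO targets, insulin signalling, activity-induced genes and MEF2 genes held 0 called genes. With 0.100% of all genes called, lists of these sizes would mostly hold 0, so the count says little about them. Of 33 FoxO target genes in stress and atrophy 16 were higher and 17 lower (median −0.0037), and the interval was inside ±0.25 for 30. Their lowest unadjusted p with a lower value was that of Sesn1, a stress-induced regulator of mTORC1, at 8.63 to 8.91 in WT and 8.57 to 8.73 in the mutant (−0.15, adjusted p = 0.992). With a higher value it was Ulk1, an autophagy kinase gene (0.10). Of 35 genes of insulin, PI3K and mTOR signalling 23 were higher (median 0.03). Igfbp4, whose product binds insulin-like growth factors, was at 9.27 to 9.39 in WT and 9.42 to 9.62 in the mutant, without overlap (0.20, SE 0.0474, adjusted p = 0.122). Activity-induced genes were 17 of 40 higher (median −0.02), with Ptgs2 at 0.24 (adjusted p = 0.543) and Jun at −0.20 (0.351). MEF2 factors and targets had a median of 0.03 over 16 genes, with the protocadherin gene Pcdh10 at 0.22 (0.184).

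**Figure D5:**
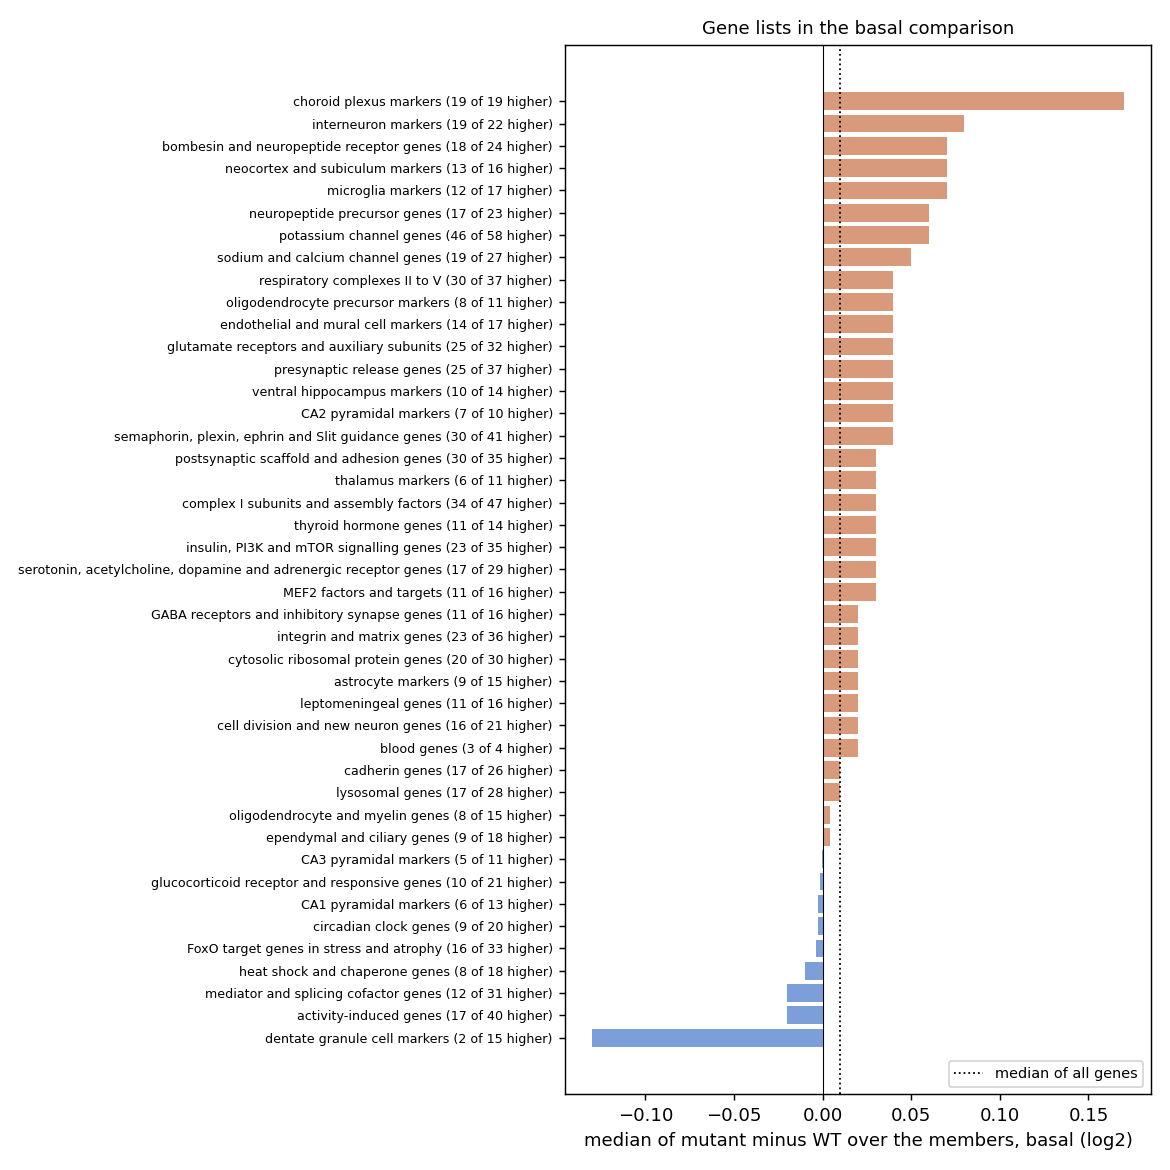
Median basal difference over the members of each gene list (mutant minus WT, log2, horizontal axis; labels give how many members were higher; dotted line, median of all genes at 0.01). Choroid plexus markers, at 0.17, and dentate granule cell markers, at −0.13, are farthest from 0, and the choroid plexus median is −0.09 against WT arrays 1 to 3 alone.

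Lists outside the synapse included some with the same lean. Of 47 complex I genes 34 were higher (median 0.03) and of 37 genes of complexes II to V 30 (median 0.04). Of 30 cytosolic ribosomal protein genes 20 were higher (median 0.02). Against WT arrays 1 to 3 alone these 3 lists did not keep the lean. There 25 of 47 (median 0.01), 19 of 37 (0.0003) and 8 of 30 (−0.03) were higher. The postsynaptic and presynaptic lists were at 25 of 35 and 25 of 37 in that setting. The median was −0.01 over 18 heat shock and chaperone genes, −0.0028 over 20 clock genes and −0.0012 over 21 glucocorticoid-responsive genes. Among integrin and matrix genes, Itga4 and Itgbl1 rose and Fibcd1 fell, of 36 measured (median 0.02). The fibronectin gene Fn1 was at 7.76 to 8.15 in WT and 8.13 to 8.44 in the mutant (0.29, adjusted p = 0.147).

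For most genes the arrays bound the size of any difference. The 95% interval lay inside ±0.25 for 15659 genes (78.5%) and inside ±0.5, a factor of 1.41, for 19746 (99%). Of all genes, 7 differed by over 1.5-fold and 1 by over 2-fold, Gdpd3 (−1.13, adjusted p = 1), a gene at 6.83 to 8.32 in WT and 4.62 to 8.19 in the mutant. Its mutant arrays spread more widely than the difference itself.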

How the data were processed

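The values in the deposited table are on a log2 scale and were made by the authors with RMA, per the submitters' processing notes, which give neither its version nor the definition of the probe sets. Of 35511 probes (transcript clusters), 21789 carry 1 gene symbol by the platform annotation, 1621 several and 12101 none. Where a gene had several such probes, as 999 did, the brightest by its mean over 24 arrays stood for it, which gave 19938 genes. Dim genes were kept, and the array medians were 6.16 to 6.30. In R 4.3.3, limma 3.58.1 fitted 4 group means over all 24 arrays (20 residual and 29 total degrees of freedom) with eBayes and a mean-variance trend. P-values are two-sided and adjusted by Benjamini-Hochberg over all genes of a comparison. The method was tested on simulated data. Gene positions, known for 19855 genes, and promoter windows, held for 15 called genes, are from RefSeq (build GRCm38.p6). Members and gene lists (43, with 1097 entries of which 78 were not measured) were chosen with earlier results of these data known. Named genes are all called genes, the FoxO genes, the smallest-p list members per direction, the 8 nearest uncalled genes per direction, and genes with the widest ranges, of which only some are printed; the lowest and highest members printed as the ends of a list's range (Gpr161, Wfs1, Thrsp, Ndufaf1 and Ndufc2) were picked after their values were seen, as the text says of further names. The alternatives were other scalings, weights, variance models, gene and array subsets, a choroid plexus covariate, a replicate block and leaving out each basal array.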

Additional observations from a re-analysis of the deposited data

Results flagged for a closer look

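Probes outside the gene comparison also differed by genotype. A test over every probe called 7 of 12101 probes without a gene name (0.0578%) and 6 of 1621 that carry several gene symbols (0.37%). Among probes of 1 gene it called 14 of 21789 (0.0643%), so the unnamed probes were called at about that share. The 6 probes of several genes all carry the same pair of symbols and moved together from array to array, so they are repeats of 1 signal and not 6 findings. They were higher in the mutant by 0.39 to 0.55, with groups that did not overlap, and were called after learning too. Of the 7 without a name 6 were lower, and their groups did not overlap in any of the 6. Probe 10341070 was at 7.85 to 8.07 in WT and at 5.87, 5.17, 5.58, 7.34, 6.02 and 5.81 on mutant arrays 1 to 6 (−1.99, SE 0.291, adjusted p = 0.00215). Probe 10508800, which shares all its values with a second probe, was at 11.36 to 11.79 in WT and at 6.61, 9.66, 9.59, 10.65, 5.36 and 6.14 on the mutant arrays (−3.55, SE 0.635, adjusted p = 0.021). After learning the WT values of that probe were 11.01 to 11.19 by array and the mutant values 8.91, 10.44, 10.56, 9.88, 10.9 and 8.95 (−1.16, adjusted p = 0.735). For this probe all mutant arrays lay below all WT arrays in both states, over a wider range.

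The groups examined for single arrays share the same arrays, and some genes were named for their wide ranges, so the chance rate is a rough guide only. Single arrays stood far from the other 5 of their group in 29 of 314 groups examined, where chance in independent groups gives about 1 in 20, or 15.7. Among called genes these were Foxo6 on mutant array 6 (6.59), Hyi on WT array 4 (6.88), Kcnv1 on WT array 6 (9.25), Klhl2 on mutant array 6 (10.67) and Stxbp6 on mutant array 2 (9.32). On WT array 6 they were also Mog (9.51), Penk (8.70), Ndufa8 (9.23), Med16 (9.13), Med8 (7.10) and the means of the complex I list (8.81) and of complexes II to V (9.83). On mutant array 4 they were Cry2 (9.48), Mfap2 (7.93) and the means of the neocortex (8.19), leptomeningeal (7.23), neuropeptide (7.65) and clock lists (8.42). WT array 5 stood out in Prkcd (8.02), Sdhb (9.29), Serpina3n (9.64, against 11.14 on the next array) and the leptomeningeal list (7.15). The remaining ones were Kcng1 (8.22) and the glucocorticoid list (8.28) on mutant array 3, Trpc6 on WT array 1 (8.26) and mutant array 6 (8.08), Adcyap1r1 on mutant array 1 (9.27), Ptgs2 on WT array 4 (8.81) and the ventral hippocampus list on WT array 1 (8.20).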

How the results depend on the processing

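The basal count of 20 became 11 in a model of the basal arrays only, 51 with array weights, 7 without the mean-variance trend, 6 without genes within 20 Mb of Foxo6 (where 8 of the 20 lie) and 10 with WT arrays 1 to 3 alone. The causes were not tested, except that the first and the last 2 use fewer arrays or genes. Leaving out single arrays gave 6 to 26 genes. It was between 14 and 27 with each array centred on its median (19), a second quantile normalization (18), robust eBayes (20), genes above the median level (18), the mean of a gene's probes (21), the choroid plexus covariate (14, and 14 in the basal arrays alone, a setting chosen after seeing the data) and every probe (27). The count called in both states, 10, became 5 without the trend, 3 without the 20 Mb window, 5 with WT arrays 1 to 3, 16 over every probe and 6 to 11 without single arrays. The change between states gave 0 calls in each setting run. Foxo6 ranged from −0.79 to −0.67 without single arrays, and 0 of the 20 called genes changed sign in any setting. Of 1075 list medians compared, 1 moved by more than the spread between arrays. The replicate block gave 14 genes; same-numbered arrays correlated at −0.247 to 0.095, so the numbers are not taken as pairs. The number of arrays limits the precision, and no signal over background was given in the table.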

Other observations

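A few genes varied widely within groups and were not called. Pttg1, known as securin of the cell cycle, was at 6.97 to 7.90 in WT and 5.18 to 7.78 in the mutant (−0.87, SE 0.388, adjusted p = 1). Klk1b22, a kallikrein gene, was at 4.48 to 6.75 against 4.34 to 5.19 (−0.52). Serpina3n, a serine protease inhibitor gene of reactive astrocytes, was at 9.64 to 11.72 in WT and 11.05 to 11.77 in the mutant (0.23), with its low end set by WT array 5.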
